A study of Homo sapiens with 16 samples.

Results

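Gene expression in NCI-H1975 cells given the chloroform fraction of Flos Magnoliae was set against that in the same line given magnolin, using 8 libraries of the 16 samples in the series. NCI-H1975 is an established human lung adenocarcinoma line whose EGFR gene carries an activating and a resistance mutation. Flos Magnoliae is the dried flower bud of Magnolia, magnolin is a lignan found in it, and the fraction is the part of the drug that partitions into chloroform. The series sought genes that accompany resistance to EGFR kinase inhibitors and agents that act on them. Each treatment had 4 libraries, numbered 1 to 4, and each fraction library was compared with the magnolin library of the same number. The 4 control libraries of the line, with no agent named in the labels, are given as the background. Values of replicates 1 and 2 come from one table (set A) and those of replicates 3 and 4 from another (set B), each normalized on its own. The labels give the genotype as wild type without naming the gene, and they give no dose, exposure time or solvent, so the treatments may differ in amount and duration and the content of magnolin in the fraction is not known here. Whether a replicate was a culture of its own is not stated either. Each p-value therefore reflects the scatter of these libraries alone, which may be technical.

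The comparison sets a plant extract, a mixture of many compounds, beside a single constituent of it. The gene groups below follow the known wiring of such cells. EGFR signals through RAS, RAF and MEK to the kinase ERK, whose activity is read from a small set of fast target genes. Aromatic plant compounds can bind the aryl hydrocarbon receptor, which switches on CYP1A1. Shortage of amino acids or stress of the endoplasmic reticulum is read by the transcription factor ATF4, and genes of mitosis are switched on together late in the cell cycle by factors that bind CHR and CCAAT elements of their promoters.

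The 8 libraries held 15962587 to 18805740 reads, and 12106 to 14011 genes reached 1 FPKM, a read count divided by the length of the gene and by a library size. Epithelial keratins were high in every library, while the lung markers NAPSA and SFTPB stayed at or below 0.446 FPKM in all of them. Replicate 1 stood apart in every group, controls included: EPCAM, an epithelial adhesion molecule, measured 172 and 178 FPKM in its treated libraries and 7.65 to 11.6 in the other 6. No pair of libraries within a group agreed within sampling noise, but replicates were nearer to each other in set B (chi-square per gene 3.99 for magnolin and 13.1 for the fraction) than in set A (115 and 120). Library composition moved with treatment in set B. Mitochondrially encoded genes held 8.17 and 7.04% of reads in the fraction libraries against 6.40 and 6.38% in the magnolin libraries, noncoding genes 4.27 and 3.95% against 2.99 and 2.97%, and the 10 genes with most reads 9.44 and 8.71% against 7.55 and 7.54%. In set A the mitochondrial share was 7.60 and 8.42% with the fraction and 8.38 and 8.80% with magnolin. The part of these shifts in the results below was not tested. Of 9 fibroblast markers COL1A1 and COL1A2 carried nearly all of the signal, and their list summed to 9.87 and 10.53 FPKM with the fraction and 15.5 and 15.1 with magnolin in set B. Over the 12 libraries of the line the defining markers DCN, COL3A1 and THY1 reached at most 0.1004 FPKM, PTPRC, CD3E and MS4A1 of immune cells at most 0.0126, VWF and TEK of endothelium at most 0.0591, and NEUROD1 and INSM1 of neuroendocrine cells were listed at 0. Of these lists only COL1A1, COL1A2 and 2 endothelial genes passed the filter in set B, where COL1A2 fell with the fraction (adjusted p = 0.0433, a call lost when rescaled over expressed genes, with the block and with any single library of either treatment left out) and 0 of the others was called.

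The 4 pairs did not move together. Across 12818 genes with at least 1 FPKM in 4 of the 8 libraries, the fraction minus magnolin difference in log2(FPKM + 1), the scale of every log2 value below, had a standard deviation over genes of 0.289 and 0.366 in pairs 1 and 2 and of 0.425 and 0.458 in pairs 3 and 4. Pairs 3 and 4 resembled each other (r = 0.531 across genes, which are not independent replicates), pair 1 was close to unrelated to any other (r = 0.091, 0.055 and 0.129), and pair 2 ran against pairs 3 and 4 (r = -0.244 and -0.386). In a fit of all 4 pairs with a term for each replicate number (limma, Benjamini-Hochberg adjusted p under 0.05, the rule for every call below) 0 genes were called (0% of 12818), with 691 at an unadjusted p under 0.05 and a lowest adjusted p of 0.279. Reads rebuilt from FPKM and tested with limma voom gave 0 calls too. The fraction was higher in all 4 pairs for 724 genes, which is 5.65% of those tested, and lower in all 4 for 961, which is 7.5%. The 20 protein-coding genes with the lowest p over the 4 pairs, chosen after their values were seen, had the same direction in every pair and are described first as values, since none passed.

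**Figure D1:**
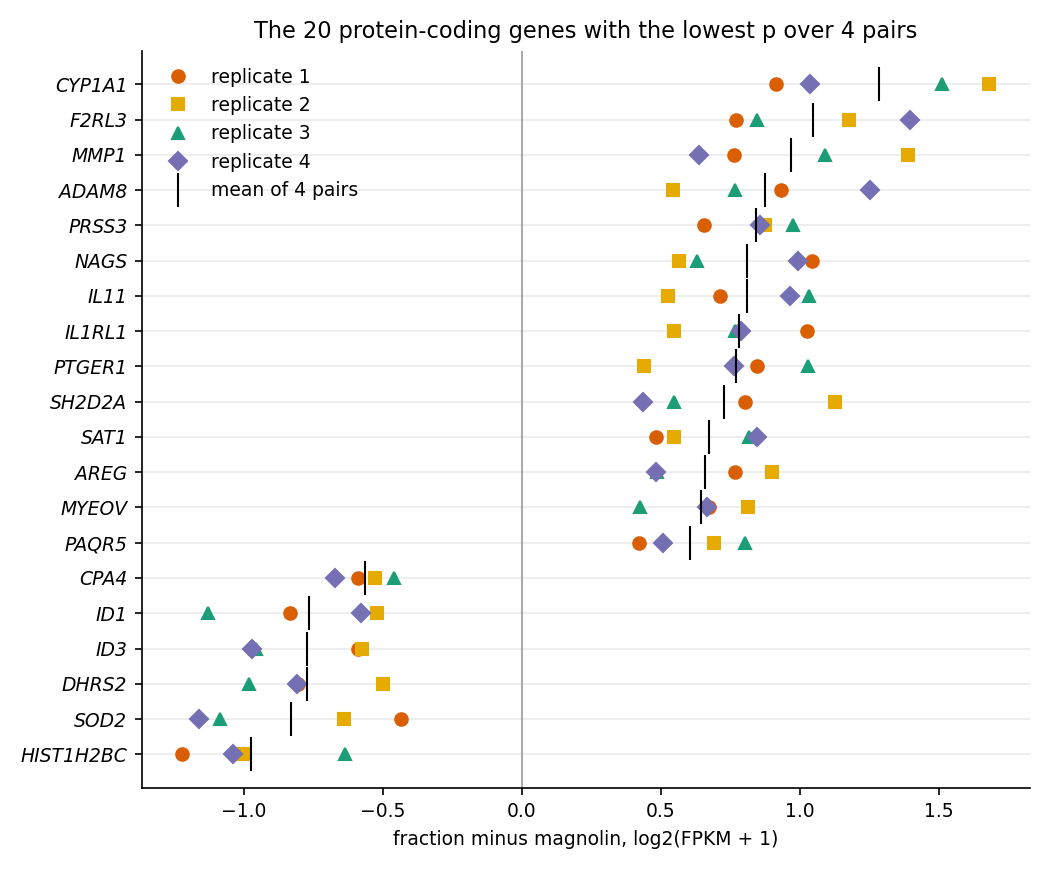
Difference between chloroform fraction and magnolin in each replicate pair (symbols) and its mean over 4 pairs (bar) on the log2(FPKM + 1) scale, for the 20 protein-coding genes with the lowest p in the fit of all pairs. Every gene shown has 4 values on the same side of 0, with CYP1A1 at 0.91 to 1.68 and HIST1H2BC at -1.22 to -0.63, and the lowest adjusted p among them is 0.279.

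CYP1A1 (ENSG00000140465, hg38 chromosome 15, 74719542 to 74725610), an oxidase of foreign aromatic compounds and the classic target of the aryl hydrocarbon receptor, had the lowest p. It measured 2.49, 1.66, 1.24 and 1.37 FPKM in control libraries 1 to 4, 4.18, 4.21, 6.43 and 10.8 with magnolin and 8.75, 15.7, 20.2 and 23.3 with the fraction. Each fraction library lay above the magnolin library of its number, and the groups overlapped only where fraction replicate 1 fell below magnolin replicate 4. The mean log2 difference over the 4 pairs was 1.28 (SE 0.15, limma adjusted p = 0.279). Within set B it was 1.27 (SE 0.22, adjusted p = 0.0183), and 0.0597 without fraction replicate 4. Other genes tied to the receptor had smaller differences. CYP1B1, a related oxidase, measured 95.1, 332, 330.2 and 350.3 FPKM with magnolin and 95.7, 364, 431 and 380.4 with the fraction, and TIPARP, a receptor target that feeds back on it, 24.4, 43.7, 40.6 and 41.3 with magnolin and 26.8, 52.2, 54.5 and 45.2 with the fraction. Both were higher with the fraction in all 4 pairs, and neither passed over the pairs or in set B (set B adjusted p = 0.0942 and 0.158). Of 7 list genes tested over the pairs, 3 were higher in all 4 and 2 lower, beside 5.65 and 7.5% of all genes. The lower ones were AHR, the gene of the receptor itself, and ARNT (joint log2 -0.16 and -0.13), and neither passed over the pairs. Of 7 genes of the receptor's list tested in set B, CYP1A1 was the 1 called, where 5.55% of all genes were called higher and 9.36% lower. The core of the receptor's binding element, GCGTG on either strand, lay within 250 bases upstream of the start in 28.6% of the 14 list genes with a RefSeq promoter and in 31.9% of 27305 promoters.

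The list of genes that read ERK activity lay slightly higher with the fraction in every pair. Its 21 genes had medians of 0.25, 0.14, 0.33 and 0.41 in pairs 1 to 4, against -0.01, 0.01, -0.04 and -0.05 over all genes. Of the 21, 9 were higher in all 4 pairs and 0 lower, beside 5.65 and 7.5% of all genes. In set A 0 members were called without a block. With the replicate block 0 were higher there and 1 was lower, against the direction of the list, beside 0.114 and 0.0687% of all genes. In set B 10 rose and 0 fell, beside 5.55 and 9.36% of all genes. IL11, a cytokine of the IL-6 family (ENSG00000095752, hg38 chromosome 19, 55364389 to 55370463), measured 71.2, 8.77, 11.7 and 14.4 FPKM with magnolin and 117, 13.1, 25.0 and 29.0 with the fraction, against 21.4, 4.55, 4.68 and 4.21 in controls. Replicate 1 was far above the other replicates in both treatments, and within each number the fraction was higher. CCND1, the cyclin of early G1 (ENSG00000110092, hg38 chromosome 11, 69641087 to 69654474), measured 131, 37.9, 55.0 and 60.1 FPKM with magnolin and 167, 64.8, 84.7 and 89.5 with the fraction. DUSP6, a phosphatase that acts on ERK, measured 5.28, 3.53, 5.19 and 5.02 with magnolin and 5.58, 4.51, 8.87 and 7.50 with the fraction, and DUSP4 8.91, 16.5, 15.99 and 17.3 with magnolin and 14.8, 18.8, 20.3 and 23.2 with the fraction. SPRY4, an inhibitor of receptor kinase signals, measured 3.26, 2.76, 2.04 and 2.63 with magnolin and 3.47, 2.67, 4.84 and 4.51 with the fraction, higher in set B and at like levels in set A. In set B, IL11 rose by 0.998 (SE 0.13, adjusted p = 0.00918) and CCND1 by 0.59 (SE 0.082, adjusted p = 0.0116). IL11 lost its call without magnolin replicate 3 (0.0531), and CCND1 without magnolin replicate 3 (0.0803) or 4 (0.0678). Their joint values were 0.81 (adjusted p = 0.448) and 0.57 (0.679). The set B count of 10 became 0 without magnolin replicate 3, 1 without magnolin replicate 4, 4 without either control replicate and 6 without fraction replicate 4.

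EGFR was slightly higher with the fraction in 3 of the 4 pairs. EGFR (ENSG00000146648, hg38 chromosome 7, 55019021 to 55211628) measured 29.5, 20.001, 25.9 and 24.8 FPKM with magnolin and 38.8, 19.5, 33.4 and 31.7 with the fraction, against 36.8, 14.7, 28.0 and 29.0 in controls. It rose in set B by 0.35 (SE 0.07, adjusted p = 0.0283), a call that was lost with the replicate block (0.0596), without magnolin replicate 3 (0.117) or 4 (0.181) and without control replicate 3 (0.074) or 4 (0.0748). AREG, which encodes the EGFR ligand amphiregulin, measured 41.9, 5.22, 7.72 and 8.69 with magnolin and 71.9, 10.6, 11.2 and 12.5 with the fraction, higher with the fraction in all 4 pairs (joint log2 0.66, SE 0.12, adjusted p = 0.488). The ligand gene TGFA measured 20.1, 5.75, 5.93 and 6.27 with magnolin and 26.8, 7.16, 7.83 and 8.54 with the fraction, also higher in all 4. Of 13 genes of this family list tested in set B, 2 rose and 1 fell, and of 16 receptor kinases that can bypass EGFR and their ligands 2 rose. Beside 5.55 and 9.36% of all genes, counts this small say nothing particular about these lists. ERBB2 measured 7.52, 6.66, 5.66 and 5.22 with magnolin and 6.36, 3.83, 5.39 and 6.42 with the fraction, MET 86.0, 38.0, 40.1 and 41.7 with magnolin and 84.4, 36.9, 38.0 and 34.3 with the fraction, AXL 18.6, 4.30, 7.85 and 7.70 with magnolin and 25.4, 7.09, 8.28 and 10.3 with the fraction, and IGF1R 4.50, 5.22, 5.63 and 5.59 with magnolin and 4.51, 3.72, 6.45 and 6.99 with the fraction. None of these receptor kinases passed in set B (adjusted p = 0.556, 0.196, 0.236 and 0.124). ERBB3 reached 3.51 and 3.29 FPKM in replicate 1 and at most 0.489 elsewhere, too low to be tested in set B. IGFBP3, which binds insulin-like growth factors, went from 4.78 and 5.19 with magnolin to 14.8 and 15.0 with the fraction there but from 4.30 and 5.27 to 2.60 and 5.20 in set A.

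Genes lower with the fraction in every pair included the ID family, inhibitors of differentiation that are direct targets of BMP signals. ID1 (ENSG00000125968, hg38 chromosome 20, 31605283 to 31606515) measured 82.7, 64.1, 41.9 and 43.6 FPKM with magnolin and 46.0, 44.5, 18.6 and 28.9 with the fraction, ID3 14.7, 27.4, 15.96 and 20.4 with magnolin and 9.41, 18.1, 7.76 and 9.94 with the fraction, and ID2 8.51, 7.19, 2.86 and 2.99 with magnolin and 3.01, 5.52, 1.45 and 1.37 with the fraction. Within each number the fraction was lower for all 3 genes. The joint log2 differences were -0.76 (SE 0.13), -0.77 (0.12) and -0.74 (0.16), with adjusted p = 0.488, 0.448 and 0.688. In set B all 3 fell (adjusted p = 0.0352, 0.018 and 0.0188), and each call was lost without magnolin replicate 4 (0.161, 0.109 and 0.126) and without magnolin replicate 3 (0.124, 0.0519 and 0.0948). ID1 also lost its call without control replicate 3 (0.0739) or 4 (0.0749). Of 18 TGF-beta and BMP genes tested over the pairs 6 were lower in all 4 and 1 higher, beside 7.5 and 5.65% of all genes. SMAD3, which carries the TGF-beta signal to the nucleus, measured 25.6, 14.5, 15.9 and 15.7 with magnolin and 24.6, 12.5, 10.6 and 11.5 with the fraction, while PMEPA1, a TGF-beta target that restrains it, was higher at 16.8, 1.78, 2.83 and 3.72 with the fraction against 10.8, 1.75, 1.51 and 1.80. SOD2, the mitochondrial superoxide dismutase, measured 7.68, 51.2, 33.5 and 30.7 with magnolin and 5.42, 32.5, 15.3 and 13.2 with the fraction. Its joint value was -0.83 (SE 0.15, adjusted p = 0.527), and it fell in set B by 1.12 (adjusted p = 0.00379), also with any single library left out. HIST1H2BC, a histone gene with close relatives whose reads may be shared, measured 9.81, 9.41, 5.58 and 4.92 with magnolin and 3.64, 4.20, 3.24 and 1.89 with the fraction (joint log2 -0.97, SE 0.12, adjusted p = 0.279).

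Other genes among the 20 of lowest p had varied roles. PRSS3, a trypsin with close relatives whose reads may be shared, measured 10.03, 1.03, 1.31 and 1.16 FPKM with magnolin and 16.4, 2.72, 3.54 and 2.91 with the fraction (joint log2 0.84, SE 0.10, adjusted p = 0.279). MMP1, a collagenase, measured 16.7, 0.867, 0.598 and 1.72 FPKM with magnolin and 29.0, 3.88, 2.40 and 3.23 with the fraction. F2RL3, a thrombin receptor, measured 0.168, 0.676, 2.22 and 1.67 with magnolin and 0.995, 2.79, 4.79 and 6.03 with the fraction, and ADAM8, a membrane metalloprotease, 9.77, 5.18, 8.84 and 8.55 with magnolin and 19.5, 8.01, 15.7 and 21.8 with the fraction. SAT1, which acetylates polyamines for export, measured 48.8, 28.9, 19.97 and 20.1 with magnolin and 68.6, 42.6, 35.9 and 36.9 with the fraction. DHRS2, a short-chain dehydrogenase, was lower, at 282, 112, 104 and 100.01 with magnolin and 161, 79.0, 52.2 and 56.7 with the fraction. Their joint differences were 0.97, 1.05, 0.87, 0.67 and -0.77. MMP1 did not pass in set B (adjusted p = 0.0843), and the other 4 did (0.0125, 0.0129, 0.00246 and 0.00401). Of 26 epithelial genes tested over the pairs 6 were higher and 1 lower in all 4, beside 5.65 and 7.5% of all genes. KRT7, a simple-epithelium keratin, measured 321, 52.0, 46.9 and 47.5 with magnolin and 406, 61.9, 58.3 and 71.0 with the fraction, and CDH1, which encodes E-cadherin, 54.2, 4.88, 4.89 and 5.23 with magnolin and 74.2, 5.92, 7.42 and 7.17 with the fraction. Replicate 1 carried several times the level of the others in both, whichever the treatment. ELF3, an epithelial transcription factor, was the member lower in all 4, at 6.64, 5.35, 5.95 and 5.81 with magnolin and 4.03, 4.59, 3.37 and 2.74 with the fraction.

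**Figure D2:**
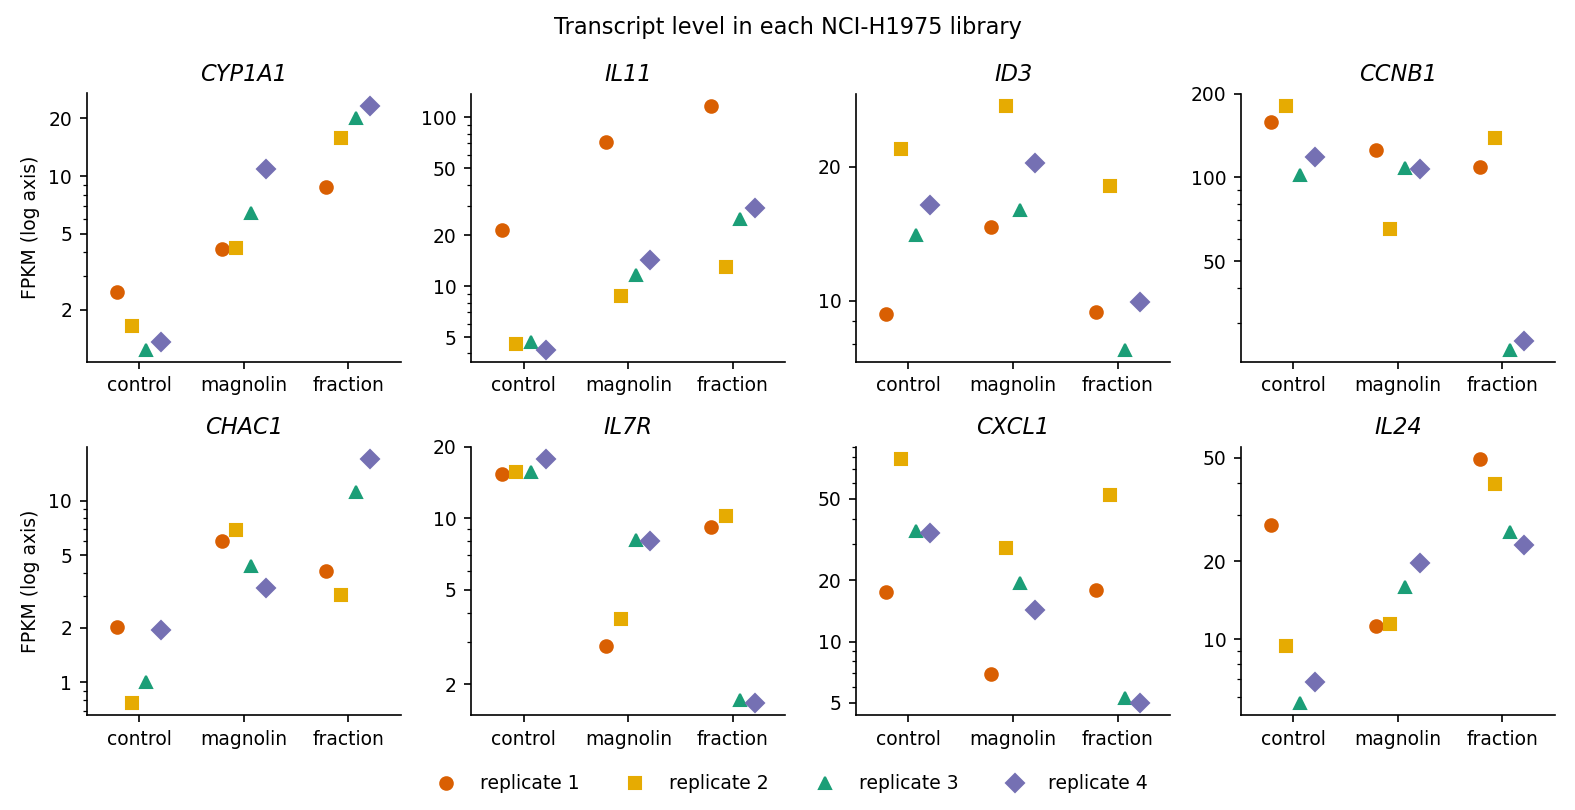
FPKM on a log axis for 8 genes in each of 12 NCI-H1975 libraries, by group and replicate number, 1 symbol per library. CYP1A1 and IL11 are higher and ID3 lower with the fraction than with magnolin at every replicate number. In replicates 3 and 4 of the fraction CCNB1 lies below magnolin and CHAC1 above it. At replicate 2 each of these genes lies on the opposite side. IL7R lies below magnolin in replicates 3 and 4 of the fraction and above it in replicates 1 and 2.

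In set B on its own the fraction differed widely from magnolin. Limma, without a replicate block and with the set's controls sharing the estimate of spread, called 814 of 14673 genes higher (5.55%) and 1374 lower (9.36%), of which 165 and 166 differed by at least 2-fold. Lower calls took 11.7% of coding genes and 1.98% of noncoding genes, and higher calls 5.31 and 6.30%. The split depends on scaling: rescaled to equal medians over genes with at least 1 FPKM in all 6 libraries, an alternative added after seeing the data, 995 were higher and 968 lower, and scaled to total reads 922 and 1111. The total of 2188 became 294 without magnolin replicate 3, 226 without magnolin replicate 4, 951 and 937 without control replicates 3 and 4, 1311 with the replicate block and 752 with no filter on low genes. Of 133 called genes that were followed through every alternative, 33 kept their call throughout, while 90 lost it without magnolin replicate 3 and 94 without magnolin replicate 4. Set A had the opposite sign for most of these genes: of 2069 called genes also tested there, 577 had the same direction and 1492 the opposite.

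Of all lists, that of mitosis had the lowest median in set B. Their promoters share a pair of short elements, the CCAAT box, bound by the factor NF-Y, and the CHR element, searched here as TTTGAA or TTCGAA, bound by the complexes that keep these genes off until late in the cycle. Within 250 bases upstream of the start, on either strand, CCAAT was found in 76.5% of the 34 list genes with a RefSeq promoter and in 33.0% of 27305 promoters, a CHR element in 55.9 and 14.6%, and both in 50% and 5.24%. The 4 promoters below, chosen because they carry both and lie wholly outside the gene spans of the deposited tables, come from RefSeq (GRCh38.p14) and are written 5′ to 3′ along the gene, with every CCAAT box and CHR element, on either strand, in capitals. A match is a description of the letters, not evidence of binding.
CDK1, the kinase that drives mitosis (chr10:60778081-60778330, plus strand): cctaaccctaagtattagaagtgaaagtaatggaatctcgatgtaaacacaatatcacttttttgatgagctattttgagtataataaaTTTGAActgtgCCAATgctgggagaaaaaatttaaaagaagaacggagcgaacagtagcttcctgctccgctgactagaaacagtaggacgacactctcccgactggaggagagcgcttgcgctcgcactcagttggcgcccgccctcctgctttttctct
KIF11, a spindle motor (chr10:92592880-92593129, plus strand): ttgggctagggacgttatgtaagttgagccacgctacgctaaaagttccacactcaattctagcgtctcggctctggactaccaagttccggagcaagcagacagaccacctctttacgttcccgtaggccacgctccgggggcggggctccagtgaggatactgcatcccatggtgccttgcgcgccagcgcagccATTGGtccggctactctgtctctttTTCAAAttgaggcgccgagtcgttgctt
MKI67, the proliferation marker Ki-67 (chr10:128126424-128126673, minus strand): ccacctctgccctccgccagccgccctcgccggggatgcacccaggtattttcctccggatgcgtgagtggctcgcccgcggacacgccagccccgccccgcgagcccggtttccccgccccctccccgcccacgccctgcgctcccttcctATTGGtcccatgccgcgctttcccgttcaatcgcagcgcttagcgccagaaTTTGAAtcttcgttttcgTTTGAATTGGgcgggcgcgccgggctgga
CKS2, a subunit of CDK complexes (chr9:89310945-89311194, plus strand): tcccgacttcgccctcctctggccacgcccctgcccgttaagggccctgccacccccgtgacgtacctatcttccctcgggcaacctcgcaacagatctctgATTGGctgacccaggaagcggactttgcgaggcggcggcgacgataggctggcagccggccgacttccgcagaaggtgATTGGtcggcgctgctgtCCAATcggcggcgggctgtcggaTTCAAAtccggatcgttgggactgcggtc
In KIF11 and CKS2 the CHR element ends 23 and 24 bases before the start and lies downstream of each CCAAT box, and in CDK1 the order is reversed, with the CHR element at 161 to 156 bases before the start and the CCAAT box at 150 to 146. MKI67 holds 2 of each, the last of which overlap by 1 base.

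All 39 tested mitosis genes fell in set B, where 9.36% of all genes were called lower. Their median log2 difference was -1.66 against -0.02 over all genes, and 39 also fell with the replicate block. CCNB1, the cyclin that starts mitosis (ENSG00000134057, hg38 chromosome 5, 69167010 to 69178245), measured 108 and 107 FPKM with magnolin and 24.0 and 25.9 with the fraction, beside 102 and 118 in controls. Both fraction libraries lay far below all 4 others of the set, a difference of -2.07 (SE 0.091, adjusted p = 0.000716). KIF20A, a kinesin of cell division, went from 28.8 and 28.5 to 4.03 and 4.95 (log2 -2.44, SE 0.13, adjusted p = 0.000808). DLGAP5, a spindle protein, went from 26.5 and 29.0 to 5.54 and 5.66, the kinase PBK from 28.9 and 29.4 to 5.56 and 6.598, ANLN, which organizes the cleavage furrow, from 104 and 107 to 26.7 and 28.1, and TOP2A, the topoisomerase that untangles chromosomes, from 82.9 and 84.0 to 21.9 and 21.7. Of the genes with printed promoters, CDK1 went from 22.6 and 27.8 to 7.65 and 8.56, KIF11 from 21.8 and 20.1 to 7.62 and 7.32, MKI67 from 36.9 and 33.8 to 10.3 and 10.3 and CKS2 from 157 and 164 to 51.1 and 55.5, and their differences were -1.52, -1.37, -1.68 and -1.58. The count of 39 became 34 without magnolin replicate 3 and 33 without magnolin replicate 4, and none of the genes named here lost its call. In bulk RNA, fewer cells of a type or state and less RNA per cell cannot be told apart.

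Set A did not share this fall. The mitosis list had medians of -0.14 in pair 1 and 0.75 in pair 2, against -1.74 and -1.54 in pairs 3 and 4, and 0 of 39 genes had the same direction in all 4 pairs. CCNB1 measured 125 and 65.3 FPKM with magnolin and 109 and 139 with the fraction in replicates 1 and 2, beside 159 and 181 in controls. The library that stood low there was magnolin replicate 2, whose mitosis genes had a median of -0.98 against the control of its number, while magnolin replicates 1, 3 and 4 had -0.21, 0.09 and -0.04. Fraction replicates 1 to 4 had -0.37, -0.20, -1.65 and -1.60 against the same controls.

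**Figure D3:**
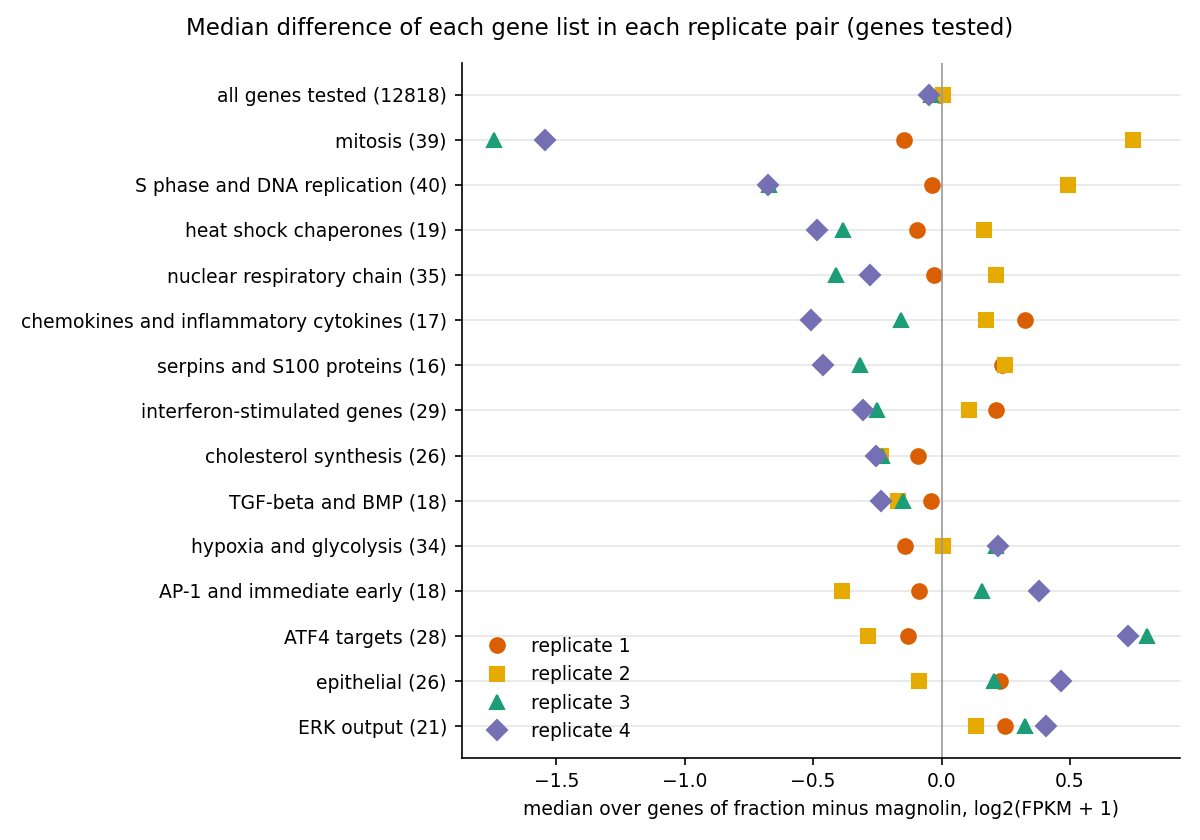
Median over the genes of each list of the fraction minus magnolin difference, log2(FPKM + 1), in each of 4 replicate pairs (symbols), with the number of genes tested over all pairs in brackets. The mitosis list spans -1.74 to 0.75, the ATF4 list is above 0 in pairs 3 and 4 and below it in pairs 1 and 2, and the ERK list is above 0 in all 4.

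Most genes of S phase also fell in set B. Each count of this paragraph stands beside 5.55% of all genes called higher and 9.36% called lower. The count of lower p53 targets given below is near that share. Of 40 tested in set B 36 fell and 0 rose, with a median of -0.71, and the pair medians were -0.04, 0.49, -0.67 and -0.67. RRM1 and RRM2, the subunits of ribonucleotide reductase, fell as well. RRM1 measured 51.0 and 54.6 FPKM with magnolin and 25.0 and 23.5 with the fraction, and RRM2 19.6 and 20.5 with magnolin and 8.15 and 8.28 with the fraction. TYMS, which makes thymidylate, went from 12.9 and 12.1 to 3.85 and 5.56, and GINS2, a part of the replicative helicase, from 6.21 and 7.72 to 2.39 and 3.12. RRM1 and RRM2 kept their calls with each library left out, while TYMS lost its call without magnolin replicate 4 (0.0544) and replicate 3 (0.0531) and GINS2 without replicate 4 (0.0722). The list count became 10 without magnolin replicate 3 and 6 without magnolin replicate 4. Among 19 G1 regulators 3 rose and 6 fell. CDKN1A, which encodes the CDK inhibitor p21, rose from 14.6 and 15.6 to 24.4 and 28.7 FPKM (log2 0.77, SE 0.11, adjusted p = 0.0111), and SKP2, which marks CDK inhibitors for breakdown, fell from 24.8 and 27.8 to 15.6 and 14.8 (-0.75, SE 0.086, adjusted p = 0.00691). CDKN1A lost its call without magnolin replicate 3 (0.0728) or 4 (0.0721) and SKP2 without magnolin replicate 4 (0.0638), when the list had 0 in either direction. Without magnolin replicate 3 it had 0 higher and 1 lower. Of 22 p53 targets, a list that also holds CDKN1A, 3 rose and 2 fell, and 7 rose without fraction replicate 3 but 1 without either magnolin replicate.

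Targets of ATF4, the transcription factor of the amino acid and integrated stress response, were higher with the fraction than with magnolin in set B. Of 30 tested in set B 24 rose and 0 fell, beside 5.55 and 9.36% of all genes. Their median was 0.74, and 20 rose with the replicate block. CHAC1, which breaks down glutathione (ENSG00000128965, hg38 chromosome 15, 40952962 to 40956519), measured 4.38 and 3.32 FPKM with magnolin and 11.1 and 16.9 with the fraction (log2 1.61, SE 0.26, adjusted p = 0.0161). SESN2, a leucine sensor, went from 5.63 and 5.51 to 17.5 and 19.2 (log2 1.56, SE 0.081, adjusted p = 0.000765), GDF15, a stress cytokine, from 32.4 and 28.2 to 76.0 and 104, and DDIT3, which encodes the stress factor CHOP, from 6.26 and 6.70 to 21.1 and 18.8. Both fraction libraries were above both magnolin libraries in each of these. In set A each of the 4 was lower with the fraction than with magnolin of the same number. CHAC1 measured 6.01 and 6.93 with magnolin and 4.09 and 3.01 with the fraction, and SESN2 10.2 and 10.7 with magnolin and 9.49 and 5.30 with the fraction. The pair medians of the list were -0.13, -0.29, 0.80 and 0.73. The count of 24 became 9 without magnolin replicate 3 and 10 without replicate 4, CHAC1 and DDIT3 lost their calls without replicate 3 (0.0618 and 0.0554) or 4 (0.104 and 0.0589), and SESN2 and GDF15 kept theirs throughout. The ATF4 element core, TGATGNAA on either strand, was found upstream of 4 of the 27 list genes with a RefSeq promoter (14.8%) and of 3.19% of all promoters.

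Other stress programmes had calls in both directions or fewer of them, beside 5.55% of all genes called higher and 9.36% called lower in set B. Of 20 aminoacyl-tRNA synthetases, many of which ATF4 also drives, 6 rose and 1 fell. AARS, for alanine, went from 109.7 and 111 to 185 and 184 FPKM and kept its call with each library left out. Of 24 genes of the endoplasmic reticulum response 4 rose and 1 fell, with a median of -0.05 and 11 of the 24 above 0. Among those that rose, the chaperone HSPA5 went from 282 and 309 to 457 and 385. The transcription factor XBP1 went from 70.7 and 71.9 to 98.0 and 98.0. Heat shock chaperones fell in part, with 11 of 19 lower, 0 higher and a median of -0.44. HSP90AA1 went from 520.0 and 577 to 363 and 313 and its partner DNAJA1 from 67.2 and 75.2 to 43.6 and 40.0. The counts of lower chaperones, higher reticulum genes and higher synthetases became 1, 0 and 1 without magnolin replicate 3, 0, 0 and 1 without magnolin replicate 4 and 5, 1 and 1 without either control replicate. Without magnolin replicate 4 HSPA5, XBP1, HSP90AA1 and DNAJA1 lost their calls (adjusted p = 0.114, 0.0988, 0.114 and 0.0671). HSPA5, XBP1 and HSP90AA1 also lost theirs without magnolin replicate 3 (0.138, 0.0849 and 0.0673), and HSPA5 without control replicate 3 (0.0629) or 4 (0.0637).

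Genes of hypoxia and glycolysis rose in part, with 10 of 34 higher and 3 lower in set B and a median of 0.25. Each count of this paragraph stands beside 5.55% of all genes called higher and 9.36% called lower. The 3 lower hypoxia genes are near that share. NDRG1, a stress gene of many cell types, went from 23.3 and 22.5 to 53.3 and 55.8 FPKM (log2 1.21, SE 0.072, adjusted p = 0.00121), VEGFA, the angiogenic growth factor, from 18.6 and 18.8 to 37.7 and 39.5 (1.01, SE 0.074, adjusted p = 0.00204) and ANGPTL4, a lipase inhibitor, from 70.3 and 87.3 to 166 and 219. In set A the treatments lay closer, with NDRG1 at 14.9 and 21.4 with magnolin and 10.497 and 19.7 with the fraction. NRF2 targets had 7 of 26 higher and 2 lower. SLC7A11, the cystine importer, which ATF4 drives too, went from 6.82 and 5.97 to 17.9 and 15.2 and HMOX1, heme oxygenase, from 19.3 and 19.9 to 29.9 and 36.4, whereas in set A HMOX1 measured 65.8 and 32.1 with magnolin and 31.3 and 15.0 with the fraction. ABCC3, an efflux transporter, went from 14.4 and 13.4 to 30.1 and 34.1, with 4 of 10 transporters higher. Autophagy and lysosome genes had 6 of 21 higher and 1 lower, among them the protease CTSD, from 126 and 126 to 238 and 312. The counts of higher genes in the hypoxia, NRF2, transporter and autophagy lists became 2, 2, 1 and 0 without magnolin replicate 3, 3, 2, 1 and 0 without magnolin replicate 4 and 4, 4, 2 and 3 without either control replicate. The 3 lower hypoxia genes became 0 in each of these. NDRG1, VEGFA, SLC7A11 and ABCC3 kept their calls with each library left out. ANGPTL4 lost its call without magnolin replicate 3 (adjusted p = 0.0609), and HMOX1 and CTSD without either magnolin replicate (at most 0.0897 and 0.0678). Metallothioneins had 1 of 7 higher, MT1X, which has near-identical relatives and lost its call without either magnolin or either control replicate (at most 0.125).

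Some inflammatory genes fell in set B. Each count below stands beside 5.55% of all genes called higher and 9.36% called lower there. Of 19 chemokines and cytokines 8 fell and 1 rose, which was IL11, though the list median was 0.02 and 10 of the 19 lay above 0. Over the pairs, 4 of 17 were higher in all 4, namely IL1A, IL1B, IL11 and IL24. Only CXCL2 was lower in all 4, beside 5.65% of all genes higher and 7.5% lower. CXCL1, which attracts neutrophils (ENSG00000163739, hg38 chromosome 4, 73869393 to 73871242), measured 19.4 and 14.3 FPKM with magnolin and 5.26 and 4.997 with the fraction (log2 -1.53, SE 0.14, adjusted p = 0.00379), and CCL2, which attracts monocytes, 3.71 and 3.53 with magnolin and 0.216 and 0.213 with the fraction (-1.93, SE 0.13, adjusted p = 0.00163). Both groups of libraries were apart for each gene, and both genes kept their calls with each library left out. Of 23 NF-kB feedback and acute phase genes 8 fell and 1 rose. IL7R, a cytokine receptor chain (ENSG00000168685, hg38 chromosome 5, 35852695 to 35879603), went from 8.08 and 8.03 to 1.71 and 1.67 (log2 -1.75, SE 0.088, adjusted p = 0.000716), BIRC3, an inhibitor of apoptosis, from 6.56 and 6.13 to 2.43 and 2.01, and SAA1, an acute phase protein, from 7.25 and 3.34 to 1.31 and 0.684. IL7R and BIRC3 kept their calls, and SAA1 lost its call without magnolin replicate 3 (0.0785), fraction replicate 4 (0.087) and control replicate 3 (0.0578) or 4 (0.0583). Of 30 interferon-stimulated genes 8 fell and 1 rose, with the antiviral OAS3 going from 14.4 and 15.1 to 5.96 and 7.09. The calls ran in both directions among 16 genes of class I antigen presentation, of which 3 rose and 4 fell. The proteasome subunit PSMB9 fell from 18.3 and 18.5 to 11.4 and 13.8. Of 16 serpins and S100 proteins 6 fell: SERPINB4 went from 7.05 and 5.58 to 1.59 and 0.992, and its near-identical neighbour SERPINB3 from 3.41 and 3.74 to 0.864 and 0.238. The counts of lower genes in the chemokine, NF-kB, interferon, class I and serpin lists became 3, 4, 2, 0 and 2 without magnolin replicate 3, 2, 5, 1, 0 and 2 without magnolin replicate 4 and 4, 5, 3, 1 and 4 without either control replicate. Without fraction replicate 4 the chemokine and interferon counts were 5 and 4, and the higher class I count was 0 without either magnolin replicate. Without magnolin replicate 4 PSMB9 and SERPINB3 lost their calls (0.143 and 0.0676), as they did without magnolin replicate 3 (0.117 and 0.0526), and PSMB9 without control replicate 3 (0.0627) or 4 (0.0635).

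Genes of cell form and metabolism had calls in both directions in set B, to be read beside the 5.55% of all genes called higher and 9.36% called lower. Of 27 epithelial genes 9 rose and 2 fell, CLDN7, a claudin, going from 3.31 and 2.30 to 5.76 and 6.46 FPKM. Of 20 mesenchymal and matrix genes 5 rose and 3 fell: the collagen gene COL5A1 went up from 30.8 and 28.6 to 53.9 and 64.7 and the matrix protein SPARC down from 64.3 and 62.8 to 37.5 and 37.1. TGF-beta and BMP genes had 4 higher and 8 lower of 20, and YAP and TEAD targets 1 higher and 2 lower of 21. Cholesterol synthesis had 10 of 26 lower and 1 higher. HMGCS1, an early enzyme of the pathway, fell from 49.6 and 51.7 to 31.5 and 27.4, and ABCA1, the cholesterol exporter that was the higher member, measured 3.72 and 3.18 with magnolin and 5.84 and 4.92 with the fraction. The cholesterol list was lower in every pair (medians -0.09, -0.24, -0.23 and -0.25), with 5 of 26 genes lower in all 4 and 1 higher, which was ABCA1. Fatty acid synthesis had 1 of 18 higher and 2 lower. Of 35 nuclear genes of the respiratory chain 14 fell, with a median of -0.34, among them the ATP synthase subunit ATP5PB, from 45.1 and 47.4 to 30.3 and 29.4. The mitochondrial genome itself had 1 of 13 genes higher and 2 lower, while its share of reads in set B was larger with the fraction. Of 39 ribosomal protein genes 5 fell, a share near that of all genes, or 1 when rescaled over expressed genes. Histones had 3 of 11 higher and 2 lower, BCL2 family and death receptor genes 1 of 22 higher and 4 lower, FOXO targets 1 of 19 higher and 0 lower, and lung lineage genes 2 of 6 higher and 0 lower. The counts of higher epithelial, mesenchymal and histone genes became 1, 1 and 0 without magnolin replicate 3, 0, 0 and 0 without magnolin replicate 4 and 4, 3 and 2 without either control replicate, and the mesenchymal count was 2 without fraction replicate 4. Lower mesenchymal and BCL2 family genes became 1 and 1 without either magnolin replicate, and the BCL2 family count was also 1 without either control replicate. TGF-beta and BMP genes had 0 calls in either direction without either magnolin replicate, 0 higher and 5 lower without either control replicate and 0 higher without fraction replicate 4. The counts of lower cholesterol, respiratory chain and ribosomal genes became 1, 0 and 0 without magnolin replicate 3 and 0, 0 and 0 without magnolin replicate 4. Without control replicate 3 they were 5, 9 and 0, without control replicate 4 5, 8 and 0, and the ribosomal count was 9 without fraction replicate 4. SPARC kept its call with each library left out. COL5A1 lost its call without magnolin replicate 4 (adjusted p = 0.0589), CLDN7 without magnolin replicate 4 (0.0962) or fraction replicate 4 (0.0573), and HMGCS1 and ATP5PB without either magnolin replicate (at most 0.0678 and 0.0702). ABCA1 kept its call only when fraction replicate 4 was the library left out (at most 0.186 otherwise).

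The largest rises of protein-coding genes in set B included some that stood in none of the lists. KLHDC7B, a kelch-domain protein of little known function (ENSG00000130487, hg38 chromosome 22, 50545891 to 50551023), measured 2.20 and 1.24 FPKM with magnolin and 14.2 and 16.1 with the fraction, a difference of 2.59 (SE 0.18, adjusted p = 0.00169). Controls 3 and 4 had 2.29 and 2.10, so both fraction libraries lay far above the other 4 of the set. UNC5B, a netrin receptor, went from 1.36 and 1.07 to 4.96 and 5.86, ADM2, a peptide hormone, from 3.07 and 3.40 to 9.89 and 11.2, and SLC34A3, a phosphate transporter, from 0.358 and 0.918 to 3.23 and 4.13. The first 3 kept their calls with each library left out, and SLC34A3 lost its call without magnolin replicate 3 (0.0558).

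In set A the difference between the treatments was small beside the distance between replicates. Without a block 0 of 13103 genes were called (0%), with 93 at an unadjusted p under 0.05, and voom on rebuilt reads gave 0 calls. Adding the replicate number as a block gave 15 higher genes (0.114%) and 9 lower ones (0.0687%). Coding genes made up 11 of these 24, and 11 had a length under 300 bases. Simulated data gave this blocked fit more false calls than its threshold states. IL24, a cytokine of the IL-10 family (ENSG00000162892, hg38 chromosome 1, 206897443 to 206904139), measured 11.2 and 11.4 FPKM with magnolin and 49.5 and 39.5 with the fraction (log2 1.87, SE 0.28, adjusted p = 0.013), beside 27.6 and 9.39 in controls. In set B it measured 15.8 and 19.6 with magnolin and 25.9 and 23.1 with the fraction, the same direction, and did not pass (adjusted p = 0.0747). The colony-stimulating factor CSF3 went from 0.479 and 0.265 to 3.63 and 3.66 (adjusted p = 0.0019) and CSF2 from 2.16 and 0.814 to 6.18 and 3.28 (0.013). CYP1A1 passed here as well (1.297, SE 0.23, adjusted p = 0.0378). The immediate early genes EGR1 and FOS, switched on within minutes of a stimulus, fell. EGR1 measured 29.5 and 74.7 with magnolin and 13.2 and 24.9 with the fraction (-1.33, SE 0.25, adjusted p = 0.0485), and FOS 7.32 and 5.39 with magnolin and 2.86 and 1.56 with the fraction (-1.21, SE 0.18, adjusted p = 0.013). Both were higher with magnolin than in the controls of set A, which had 13.6 and 15.0 for EGR1 and 2.80 and 1.33 for FOS. In set B EGR1 measured 10.7 and 11.5 with magnolin and 12.1 and 13.7 with the fraction, and neither gene passed there (adjusted p = 0.257 and 0.858), while 5 of the 18 immediate early genes, among them KLF4 and JUN, rose there, a count of 0 without magnolin replicate 3 and 1 without magnolin replicate 4 or either control replicate. HIST1H2BC fell in set A with the block (adjusted p = 0.0173). MYH15, a myosin heavy chain, rose there (adjusted p = 0.0169), as did IL7R, described below. The count of 24 was 8 without fraction replicate 1, 3 without fraction replicate 2, 230 without magnolin replicate 1 and 165 without magnolin replicate 2. Of the 9 named genes 0 kept its call under every alternative.

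The difference between the sets was itself tested, over the same 12818 genes. Limma with the replicate block called 53 genes whose fraction minus magnolin value was higher in set B than in set A (0.413%) and 77 whose value was lower (0.601%). Of these 130, 124 had opposite signs in the sets and 114 were also called in set B. Mitosis genes supplied 21 of the 77, out of 39 tested, and ATF4 targets 10 of the 53, out of 28. IL7R was the clearest case. It measured 15.4, 15.7, 15.7 and 17.8 FPKM in controls 1 to 4. Magnolin replicates 1 and 2 were lowest of set A at 2.91 and 3.76, with the fraction at 9.21 and 10.2. In set B the fraction was lowest at 1.71 and 1.67, with magnolin at 8.08 and 8.03. It thus passed in opposite directions, by 1.31 in set A with the block (SE 0.18, adjusted p = 0.00965) and -1.75 in set B, and the difference was -3.06 (SE 0.19, adjusted p = 0.00864). CXCL1 measured 6.93 and 28.6 with magnolin and 17.9 and 52.3 with the fraction in set A, and SRGN, a proteoglycan of secretory granules, 3.40 and 9.45 with magnolin and 5.66 and 30.8 with the fraction, against 17.3 and 16.1 with magnolin and 7.04 and 4.12 with the fraction in set B. Their differences between the sets were -2.58 and -2.56 (adjusted p = 0.0362 and 0.0419). Of 17 chemokines and cytokines tested 5 were called, all lower in set B. CYP1A1 differed by 1.297 in set A and 1.27 in set B, and the sets were not told apart (difference -0.02, SE 0.30, adjusted p = 0.974). The 130 calls became 0 without the block (1038 at an unadjusted p under 0.05), 1 with a pseudocount of 0.1, 0 with no filter on low values and 1144 with limma voom. Simulated data gave this fit more false calls than its threshold states as well.

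**Figure D4:**
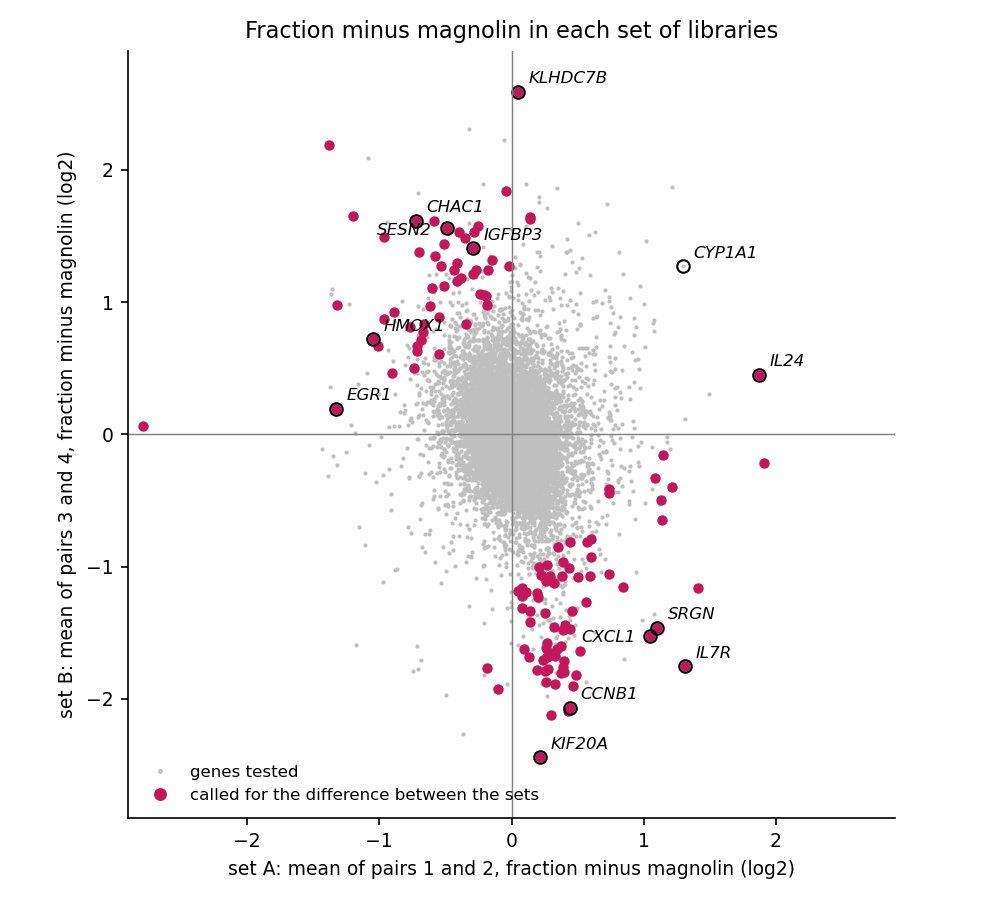
Mean fraction minus magnolin difference of pairs 1 and 2 (x axis) against that of pairs 3 and 4 (y axis), log2(FPKM + 1), for 12818 genes in grey, with the 130 genes called for the difference between the sets in colour and 13 genes ringed and named. Most coloured genes lie in the upper left and lower right of the plot, IL7R at 1.31 and -1.75, while CYP1A1 lies at 1.297 and 1.27.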

How the data were processed

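RNA-seq values of 12 NCI-H1975 libraries were used. The authors deposited FPKM per gene (58735 genes, hg38 per the submitters' processing notes); which programs aligned and counted the reads is not given in the sources used here. Replicates 1 and 2 (set A) and 3 and 4 (set B) stand in tables normalized separately. Another table of the series, and 2 of its columns that match no sample label, were not used. FPKM times gene length gave whole reads (tolerance 0.05) for 100% of values up to 2000 reads, and these rebuilt reads gave depth and the voom alternative.

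Differences were fitted on log2(FPKM + 1) with limma 3.58.1 in R 4.3.3 (lmFit, eBayes with trend, Benjamini-Hochberg over all genes tested, threshold 0.05). The fit of 4 pairs used the 8 libraries, the replicate number as a block and genes with at least 1 FPKM in 4 libraries. The fits within a set used its 6 libraries, controls included, without a block, and genes with at least 1 FPKM in 2 of them. The difference between sets was tested with the block. Libraries were paired by replicate number from the outset. Over both sets, deviations of same-numbered libraries had correlations of 0.873, 0.293, 0.554 and 0.361 for numbers 1 to 4. Fraction replicate 4 was closer to a magnolin library of another number. These correlations also carry the difference between the sets, so they do not show that the numbers mark true pairs. Within set A alone the correlation was 0.774 and within set B alone -0.039.

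Named genes were protein-coding genes with the 8 largest changes in each direction in a set without overlap of the groups and a mean of at least 2 FPKM, up to 4 called members of each list, the 4 largest differences between sets in each direction, and always EGFR, ERBB2, ERBB3, MET, AXL and IGF1R. The rule for the fit of 4 pairs (the 10 largest in each direction) found none, so the 20 genes of lowest p and list members of the same sign in all pairs were added after seeing the data. CDK1, KIF11, MKI67 and CKS2 were added for their promoters. The 40 gene lists (918 of 920 entries matched) and the genes compared were chosen with earlier results of these data known. Each fit except that of set A without the block was tested on simulated data with known changes. The set B fit kept its false calls within the threshold, the fit of 4 pairs exceeded it slightly, and the blocked set A fit and the difference between sets exceeded it by more. All simulated libraries were given the same scatter beyond sampling noise, unlike the real ones. The simulation therefore cannot say how many of the real calls are false.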

Additional observations from a re-analysis of the deposited data

Results flagged for a closer look

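Of 122 genes examined, for 7 the fraction minus magnolin difference in log2(FPKM + 1) of 1 pair lay apart from the other 3, by a rule that chance meets in about 1 in 20 groups, so a number like this can come from chance. Pair 2 stood apart for EGFR (-0.035) and ESRP2, an epithelial splicing factor (0.12). Pair 4 stood apart for BAD, a death-promoting BCL2 relative (0.64), CTGF, a YAP target (-0.24), and MSMO1, an enzyme of cholesterol synthesis (-0.35). Pair 1 stood apart for GRB2, an adaptor of EGFR (-0.052), and pair 3 for HIST2H2AC, a histone gene with near-identical relatives (-1.66).

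For 8 genes the difference was itself different in the sets, by limma's test of set B minus set A with the replicate block. It was higher in set B for KLHDC7B (2.54), CHAC1 (2.34), SESN2 (2.05) and ADM2 (1.96), and lower for IL7R (-3.06), KIF20A (-2.65), CXCL1 (-2.58) and SRGN (-2.56). All 8 passed with each replicate number left out, and none passed with no filter on low values or without the block. With a pseudocount of 0.1, IL7R alone of the 8 passed.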

How the results depend on the processing

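The fit of 4 pairs gave 0 calls under all 14 alternatives (276 to 2020 genes at an unadjusted p under 0.05). In set B the 2188 calls became 1034 with the 4 libraries of both groups alone, 3578 with limma voom, 752 with no filter, 1311 with the replicate block and 226 to 3017 when a library was left out (the lowest without magnolin replicate 4, the highest without fraction replicate 3). In set A 0 calls became 24 with the replicate block. These 24, chosen after seeing the data, became 3 without fraction replicate 2 and 230 without magnolin replicate 1. The 130 differences between sets became 1144 with limma voom, 556 at a mean of at least 5 FPKM, 971 among protein-coding genes, 79 when rescaled over expressed genes, 1 with a pseudocount of 0.1, 0 with no filter, 0 with no replicate block (3605 and 1038 by unadjusted p), and 271 to 1879 with a replicate number left out. The cause of these changes was not tested. IGF1R over the 4 pairs went from -0.076 (without replicate 4) to 0.15 (without replicate 2), negative also without replicate 3 (-0.040), and ERBB2 in set B from -0.011 (without fraction replicate 4) to 0.20 (without fraction replicate 3); neither was called. Deposited FPKM already had equal median-ratio factors within a set, so that planned rescaling changed little, and 2 other scalings were added after seeing the data. With 2 libraries per group in a set, leaving 1 out assumes that the lone library varies like the others. The replicate block removed the calls of 26 of the 133 followed genes in set B.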
